A study of Mus musculus with 8 samples.

Results

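The genes described here are 40 mouse genes of the NRF2 response, glutathione metabolism and the pentose phosphate pathway, out of 47937 genes in the count tables. They were taken from a list of gene names with no threshold on a measured value, although the list was drawn up with earlier results of these data known. Each name matched 1 gene, and all 40 passed the filter on low counts in every comparison. By role, the set holds 3 regulators, 5 enzymes or stress proteins of heme, quinone and carbonyl metabolism, 5 genes of glutathione synthesis and recycling, 10 genes whose products use or export glutathione, 7 thioredoxin and peroxiredoxin genes, 3 superoxide dismutase and catalase genes, and 7 genes of the pentose phosphate pathway and other NADPH sources.

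Messenger RNA was sequenced from bone marrow-derived dendritic cells (BMDCs), which are grown from mouse bone marrow with the growth factor GM-CSF (here 20 ng/ml for 8 days). All donors were C57BL6/J mice older than 8 weeks. The knockout, labelled Grk 3xKO and written here as 3xGrk-/-, carried the Vav-iCre transgene together with loxP-flanked Grk2 and Grk6 (Grk2 fl/fl and Grk6 fl/fl) and a germline deletion of Grk3 (Grk3-/-). The recombinase acts from early blood-forming precursors on, and Grk5 was not targeted. WT controls were Cre-negative mice matched for age and sex. Cells of both genotypes were left unstimulated or were matured with 20 ng/ml of the bacterial product LPS for 24 h, which gave 4 groups of 2 libraries. G-protein coupled receptor kinases switch off activated receptors, and the design asks how cells that lack 3 of them differ from WT cells before and after maturation. The methods name technical triplicates and do not say whether 2 libraries of a group came from separate cultures, so that the p-values measure the spread between these libraries, which may be technical.

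Library totals in the count tables ran from 4713305 to 6933358 reads. The targeted genes were lower in both 3xGrk-/- libraries than in both WT libraries in either state: by log2 fold changes of -1.11 for Grk2, -1.19 for Grk6 and -0.36 for Grk3 in unstimulated cells, and of -1.89, -1.54 and -0.42 after LPS. Counts of a whole gene do not show which exons the remaining reads came from. Marker genes differed between the genotypes as well. The counts of markers higher or lower stand beside the shares of all genes tested. These were 22.1% higher and 22.7% lower unstimulated, and 24.7% higher and 24% lower after LPS. The summed level of 12 monocyte and macrophage markers was 2395 to 2419 CPM (read counts scaled to the size of the library) in unstimulated WT cells and 9344 to 9352 CPM in 3xGrk-/- cells, and 733 to 751 CPM against 10242 to 10382 CPM after LPS. Lyz2 held most of the unstimulated 3xGrk-/- sum (7068 and 7093 CPM). Of the 12, 7 were higher and 4 lower unstimulated (Fcgr1, C1qa, C1qb and C1qc were lower, with C1qb at 158 and 162 CPM in WT against 42.6 and 40.6 CPM), and all 12 were higher after LPS. The sum of 11 dendritic cell markers was 26255 to 26469 CPM in unstimulated WT cells and 13546 to 13818 CPM in 3xGrk-/- cells, and 16763 to 18339.6 CPM against 14329 to 14615 CPM after LPS, and none of these 11 markers was at 0. Cd74 and the 3 H2 genes held most of it. Of the 11, 3 were higher (Ccr7, Itgax and Flt3) and 7 lower unstimulated, and 2 were higher (Itgax and Flt3) and 9 lower after LPS. The sum of 9 neutrophil markers was 721 to 767 CPM against 531 to 546 CPM unstimulated (0 higher, 6 lower) and 350.4 to 405 CPM against 211 to 233 CPM after LPS (1 higher, 6 lower). The sum of 7 eosinophil markers was 1175 to 1232 CPM against 62.9 to 69.1 CPM unstimulated (0 higher, 6 lower), and 1084 to 1183 CPM against 79.6 to 85.6 CPM after LPS (0 higher, 7 lower). Of these, Il5ra and Ccr3 stayed under 1 CPM in the 3xGrk-/- libraries and passed the filter on low counts through the WT libraries. The sum of 6 stromal markers was 138 to 148 CPM in the 3xGrk-/- LPS libraries and at most 19.2 CPM in the other 6, and Dcn alone held 127 and 113 CPM of it (0 called unstimulated, 4 higher and 1 lower after LPS). The sum of 6 mast cell and basophil markers was 62.8 to 68.4 CPM against 61.5 to 63.3 CPM unstimulated, and 81.3 to 90.0 CPM against 65.8 to 76.5 CPM after LPS (0 higher, 3 lower in either state). In 3xGrk-/- cells after LPS, Ms4a2 of this list (0.18 and 0.16 CPM) and the neutrophil marker Mpo (0.36 and 0.16 CPM) were near the floor. Both passed the filter through the WT libraries. The sum of 7 lymphocyte markers was at most 1.70 CPM in any library, and none was called. Of 8 erythroid markers, which bear on the heme genes, 4 were at 0 in every library and 7 stayed under 1 CPM. The eighth, the globin gene Hbb-bt, held most of the sum and differed in opposite directions: it was at 4.39 and 2.66 CPM in WT against 8.68 and 8.16 CPM in 3xGrk-/- cells unstimulated (called higher), and at 13.4 and 16.7 CPM against 5.27 and 4.86 CPM after LPS (called lower). Hbb-bt has a near-identical copy, Hbb-bs, so its count is uncertain. The part of these marker differences in the results below was not tested, and in bulk RNA a different share of cells of a type cannot be told apart from a different amount of RNA per cell.

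NRF2 (gene Nfe2l2) is a transcription factor that KEAP1 holds in the cytoplasm and marks for degradation. Electrophiles or oxidants modify KEAP1, and NRF2 then enters the nucleus, pairs with a small MAF protein and binds antioxidant response elements near genes of detoxification, glutathione, thioredoxin and NADPH metabolism. NADPH from the pentose phosphate pathway is the reducing power for glutathione and thioredoxin, and in phagocytes it also feeds the oxidase that makes superoxide. In macrophages LPS sets off both oxidant production and parts of this defence.

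The core of the antioxidant response element is commonly written TGACNNNGC, or GCNNNGTCA on the other strand, where N is any base. It was searched on both strands of the RefSeq promoters of GRCm38.p6, each of which spans 250 bases before to 50 bases after an annotated start. Of the 40 genes, 35 had such a window (46 windows in all), and Hmox1, Gclc, Prdx6, Gsr and Abcc1 had none. The core was found in 10 of these 35 genes (28.6%), against 3781 of the 27025 genes with a window in the whole table (14.0%, 32851 windows). The genes with a match were Nfe2l2, Srxn1, Gclm, Prdx1, Pgd, Mgst1, Txnrd1, Me1, Sod1 and G6pdx. The sequences of 6 of them are shown because their RNAs followed different courses: Prdx1, Srxn1, Gclm and Mgst1 were higher in 3xGrk-/- cells in both states, G6pdx only passed the test after LPS, and Me1 was lower in both states. Capitals mark the 9 bases of the core, the coordinates follow in the order of the sequences, and each sequence is written on the strand of its gene, which is the plus strand except for G6pdx and Me1.
Prdx1: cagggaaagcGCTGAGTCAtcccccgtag
Srxn1: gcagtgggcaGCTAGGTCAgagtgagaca
Gclm: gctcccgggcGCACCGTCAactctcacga
Mgst1: gcggggcttgGCACGGTCAggaggcgggg
G6pdx: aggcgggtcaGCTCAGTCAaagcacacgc
Me1: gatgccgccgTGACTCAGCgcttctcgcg
They lie at chr4:116685456-116685484, chr2:152105542-152105570, chr3:122245413-122245441, chr6:138140461-138140489, chrX:74428919-74428947 and chr9:86695902-86695930. A match is a description of the letters and not evidence of binding, and members without a match may carry the core elsewhere.

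Most of the 40 genes were higher in 3xGrk-/- BMDCs. In unstimulated cells 27 of 40 were higher, 6 were lower and 7 did not pass the test (edgeR's quasi-likelihood test, Benjamini-Hochberg adjusted p under 0.05 over all 12000 genes tested), where 22.1% of all genes were higher and 22.7% lower. After LPS 25 of 40 were higher, 8 were lower and 7 did not pass, against 24.7% of 11830 genes higher and 24% lower. The median log2 fold change of the 40 was 0.52 unstimulated and 0.57 after LPS, beside -0.00 and -0.01 for all genes tested. In both comparisons 21 genes were higher, and Cat, Gsto1, Idh1 and Me1 were lower in both. Gpx1, Pgls and Sqstm1 passed in opposite directions, and Cbr1 and Prdx2 passed in neither. The summed level of the set was 6409 and 6442 CPM in the unstimulated WT libraries and 10548 and 10407 CPM in the 3xGrk-/- libraries. With LPS the sum was 6262 and 6628 CPM in WT and 10348 and 10342 CPM in 3xGrk-/- cells, so that the genotypes did not overlap. Per kilobase of exon, the highest levels in unstimulated WT cells were those of Gpx1 (317 RPKM, that is, CPM per kilobase), Txn1 (206 RPKM) and Prdx1 (183 RPKM), and the lowest was that of Mgst2 (1.32 RPKM). In unstimulated 3xGrk-/- cells Prdx1 came first (799 RPKM), before Gpx1 (461 RPKM) and Txn1 (340.1 RPKM), and Me1 last (0.81 RPKM). The count of 8 lower genes after LPS was 5 without 3xGrk-/- LPS replicate 2. Scaling by library size alone moved the median of all genes to -0.09 in both comparisons, and 25 of the 40 were then higher and 8 lower unstimulated, and 24 higher and 8 lower after LPS. Over all genes that scaling gave 1968 higher and 3525 lower unstimulated where the main scaling gave 2647 and 2722, and 2474 higher and 3572 lower after LPS where it gave 2919 and 2835. Among the 40 it ended the unstimulated calls of Nfe2l2 (0.10, edgeR adjusted p = 0.105) and Gclc (0.20, edgeR adjusted p = 0.0763) and the call of Abcc1 after LPS (0.14, edgeR adjusted p = 0.0638), and it brought G6pdx (-0.12, edgeR adjusted p = 0.048) and Gstm1 (-0.20, edgeR adjusted p = 0.0168) past the threshold unstimulated. DESeq2 did not call Nfe2l2, Gclc, Gstp1, Mgst3, Pgls, Me1 and Idh1 unstimulated (adjusted p = 0.0808 to 0.569) or Keap1 and Idh1 after LPS (adjusted p = 0.0699 and 0.138).

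**Figure D1:**
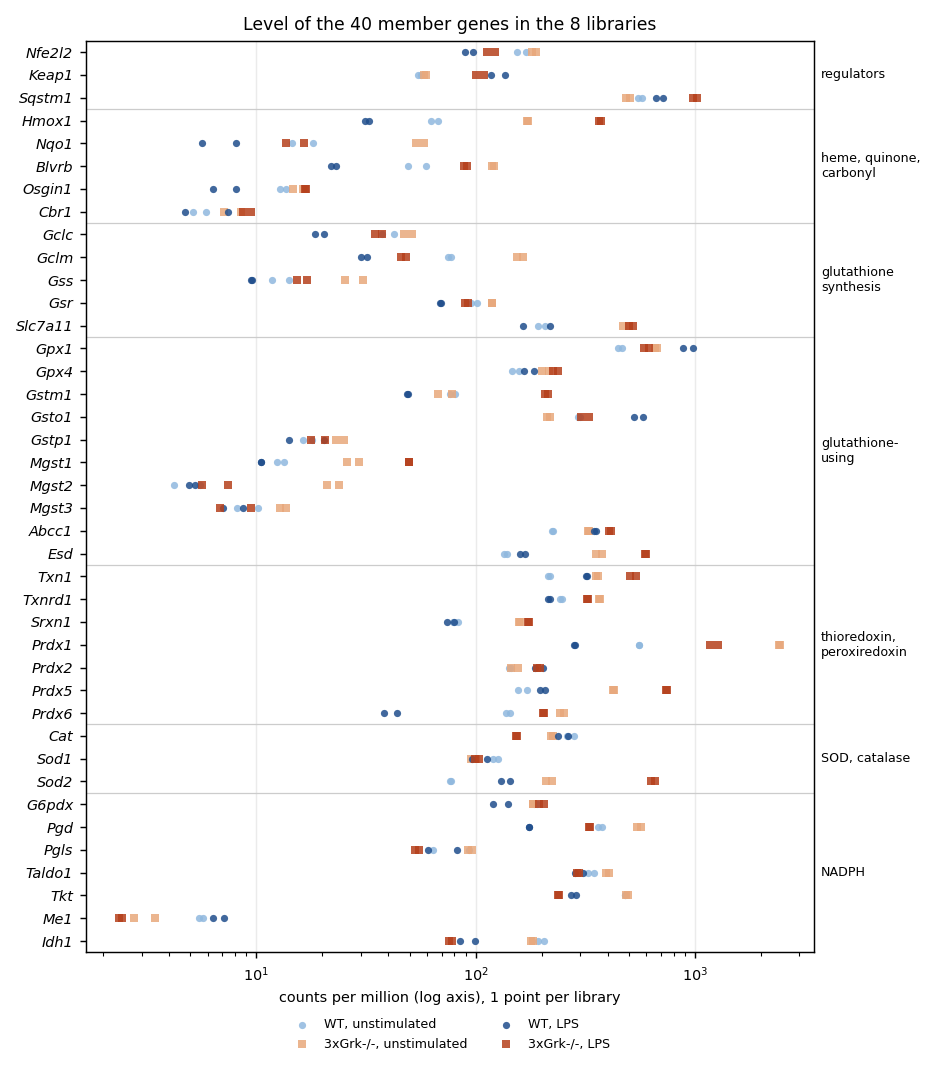
Level of each of the 40 genes in the 8 libraries, in CPM on a log axis with 1 point per library; circles are WT, squares 3xGrk-/-, and darker colours LPS. Prdx1 in unstimulated 3xGrk-/- cells (2457 and 2408 CPM) stands at the far right, and Me1 after LPS in 3xGrk-/- cells (2.36 and 2.43 CPM) at the far left.

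**Figure D2:**
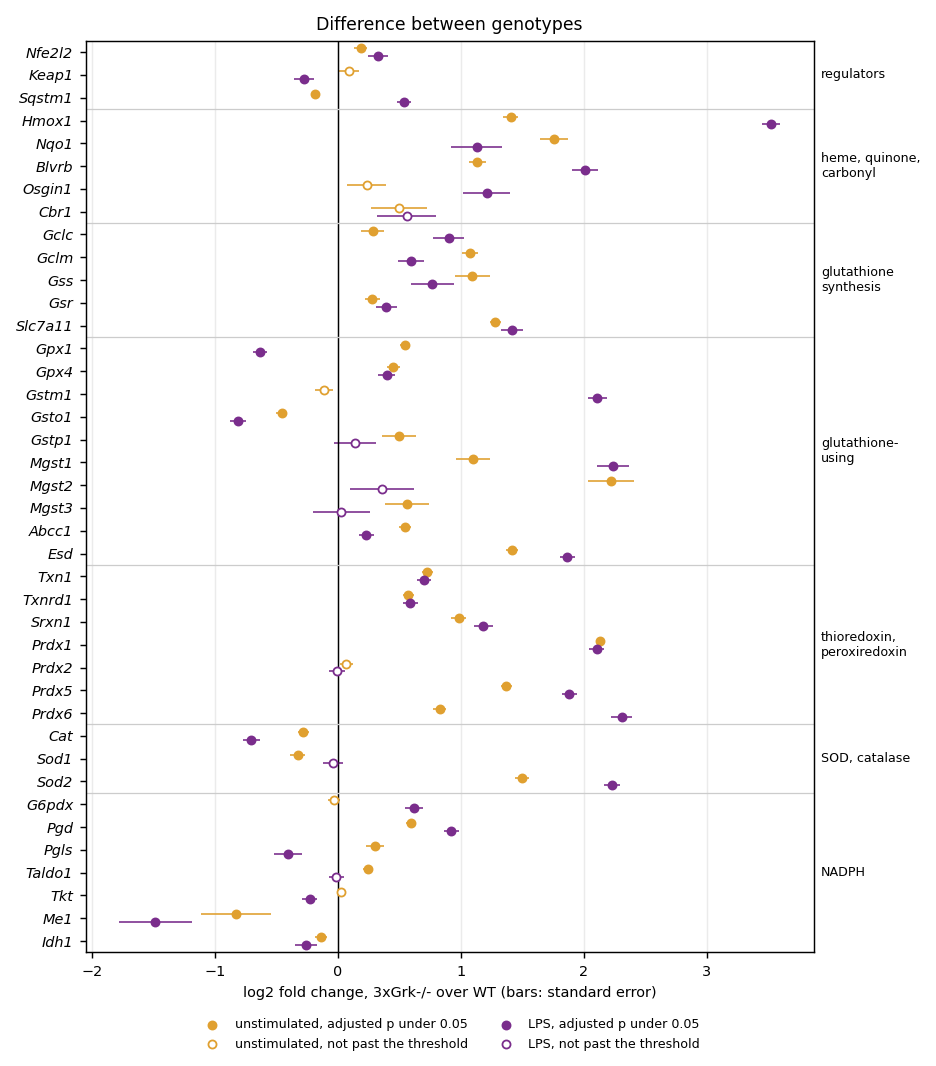
Log2 fold change of 3xGrk-/- over WT for each gene, unstimulated (orange) and after LPS (purple), with bars of 1 standard error; filled circles passed an adjusted p of 0.05. The largest difference is that of Hmox1 after LPS (3.52), and most filled circles lie to the right of 0.

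The peroxiredoxin and thioredoxin genes had the highest summed level of the role groups in 3xGrk-/- cells, where 6 of the 7 were higher than in WT in both states. Peroxiredoxins reduce peroxides with a reactive cysteine that thioredoxin renews. Their sum was 1540.4 and 1556 CPM in unstimulated WT libraries and 4179.7 and 4099 CPM in 3xGrk-/- libraries, and 1313 and 1357 CPM against 3310.3 and 3449 CPM after LPS. Prdx1 (chr4:116685544-116700822), an abundant cytosolic peroxiredoxin, was at 557 and 556 CPM in unstimulated WT cells, 2457 and 2408 CPM in unstimulated 3xGrk-/- cells, 285 and 282 CPM in WT cells after LPS, and 1169 and 1269 CPM in 3xGrk-/- cells after LPS. The groups were far apart, and the difference was 2.13 log2 units unstimulated (SE 0.0325, 4.37-fold) and 2.11 after LPS (SE 0.0614, edgeR adjusted p = 5.11e-17). Prdx1 alone made up much of the group's sum.

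Prdx5, found in mitochondria, peroxisomes and cytosol, was at 157 and 171 CPM in WT and 426 and 423 CPM in 3xGrk-/- cells unstimulated, and at 196 and 207 CPM against 741 and 744 CPM after LPS. The log2 fold changes were 1.37 (SE 0.0459) and 1.88 (SE 0.0611, edgeR adjusted p = 3.33e-16). Prdx6, a peroxiredoxin that works with glutathione, had 144 and 137 CPM in unstimulated WT cells and 254 and 243 CPM in 3xGrk-/- cells. Its LPS levels were 38.3 and 43.6 CPM in WT and 203 and 204 CPM in 3xGrk-/- cells. Its difference of 0.83 (SE 0.0499) unstimulated was thus 2.31 (SE 0.0826, edgeR adjusted p = 1.62e-15) after LPS. Srxn1 (sulfiredoxin), which repairs overoxidised peroxiredoxins, was higher by 0.98 and 1.18 log2 units, with 78.8 to 82.9 CPM in unstimulated WT and 158 to 160.1 CPM in 3xGrk-/- libraries. Txn1, thioredoxin itself, was higher by 0.72 and 0.70, from 213 and 219 CPM to 361 and 354 CPM unstimulated and from 319 and 324 CPM to 505 and 538 CPM after LPS. Txnrd1, the reductase that returns thioredoxin to its reduced form with NADPH, was higher by 0.57 and 0.59, with 244 and 249 CPM in unstimulated WT and 367 and 366 CPM in 3xGrk-/- cells. Prdx2 was the member that did not pass, with 143 and 145 CPM in WT and 156 and 145 CPM in 3xGrk-/- cells unstimulated, and overlapping groups after LPS as well.

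The 5 genes of heme, quinone and carbonyl metabolism were higher in 3 members unstimulated and in 4 after LPS, and none was lower. Hmox1 (chr8:75093621-75100589) encodes heme oxygenase, which opens the heme ring to biliverdin, iron and carbon monoxide. It was at 62.5 and 67.3 CPM in WT and 172 and 173 CPM in 3xGrk-/- cells unstimulated, and at 31.2 and 32.8 CPM against 365 and 372 CPM after LPS. This was a 2.65-fold difference unstimulated (log2 1.40, SE 0.0628) and an 11.5-fold difference after LPS (log2 3.52, SE 0.077, edgeR adjusted p = 4.68e-19), the largest of the set. Blvrb, a biliverdin and flavin reductase, rose from 48.9 and 59.4 CPM to 122 and 119 CPM unstimulated (log2 1.13, SE 0.0715) and was at 23.0 and 21.8 CPM in WT against 88.9 and 91.6 CPM after LPS (log2 2.01, SE 0.104).

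Nqo1, the quinone reductase that serves as a standard readout of NRF2, was at 14.5 and 18.1 CPM in WT and 58.2 and 53.5 CPM in 3xGrk-/- cells unstimulated, a difference of 1.76 log2 units (SE 0.114, edgeR adjusted p = 4.58e-52). Its levels after LPS were 5.62 and 8.05 CPM in WT and 13.6 and 16.5 CPM in 3xGrk-/- cells (log2 1.13, SE 0.209). Osgin1, a stress-induced regulator of growth and death, was at 12.8 and 13.6 CPM against 16.3 and 14.8 CPM unstimulated, which did not pass (log2 0.23, edgeR adjusted p = 0.24). LPS-treated libraries were at 6.35 and 8.05 CPM in WT and 16.9 and 16.7 CPM in 3xGrk-/- cells (log2 1.21, SE 0.189). Cbr1, a carbonyl reductase near 4.72 to 9.40 CPM in all 8 libraries, passed in neither state (log2 0.50 and 0.56, edgeR adjusted p = 0.0624 and 0.0625). The latter difference passed with no filter on low counts (0.58, edgeR adjusted p = 0.0356) and in a fit of all 8 libraries (0.56, edgeR adjusted p = 0.0427). Without WT LPS replicate 2 it was 0.95.

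All 5 genes of glutathione synthesis and recycling were higher in 3xGrk-/- cells in both states. Their sum was 419.7 and 434 CPM in unstimulated WT libraries and 817 and 866 CPM in 3xGrk-/- libraries, and 348 and 294 CPM against 689 and 714 CPM after LPS. Slc7a11, the antiporter that imports cystine for glutathione, was at 192 and 207 CPM in WT and 470.3 and 501 CPM in 3xGrk-/- cells unstimulated (log2 1.28, SE 0.0439, edgeR adjusted p = 2.25e-181). After LPS the WT libraries were at 219.5 and 164 CPM and the 3xGrk-/- libraries at 502 and 520.5 CPM (log2 1.42, SE 0.0906). The difference was thus several times the gap between the WT libraries.

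Glutamate-cysteine ligase makes the first bond of glutathione and is built of a catalytic subunit, Gclc, and a modifier subunit, Gclm. The subunits differed in course. Gclm was at 77.2 and 74.6 CPM in WT and 155 and 164 CPM in 3xGrk-/- cells unstimulated (log2 1.07, SE 0.0619), and at 30.1 and 32.0 CPM against 45.8 and 48.0 CPM after LPS (log2 0.59, SE 0.107). Gclc was at 37.4 and 42.6 CPM against 47.3 and 51.1 CPM unstimulated (log2 0.28, SE 0.094, edgeR adjusted p = 0.00808), and at 20.3 and 18.6 CPM against 34.9 and 37.5 CPM after LPS (log2 0.90, SE 0.126). The unstimulated difference in Gclc was 0.20 without WT replicate 1 (edgeR adjusted p = 0.136) and 0.23 without 3xGrk-/- replicate 2 (edgeR adjusted p = 0.0999). Gss, glutathione synthetase, was at 11.8 and 14.0 CPM in WT and 25.4 and 30.7 CPM in 3xGrk-/- cells unstimulated, and was higher by 1.09 log2 units (SE 0.141) and by 0.77 after LPS (SE 0.176). Gsr, which reduces oxidised glutathione with NADPH, showed smaller differences of 0.28 (SE 0.0622) and 0.39 (SE 0.0835), with 101 and 95.3 CPM in unstimulated WT cells and 119 CPM in both 3xGrk-/- libraries.

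Among the 10 genes whose products use or export glutathione, 8 were higher and 1 lower unstimulated, and 5 were higher and 2 lower after LPS. The membrane-bound transferases of the Mgst family took different courses. Mgst1 was at 12.4 and 13.3 CPM in WT and 29.3 and 25.9 CPM in 3xGrk-/- cells unstimulated (log2 1.10, SE 0.141), and at 10.5 CPM in both WT libraries against 49.6 and 49.9 CPM after LPS (log2 2.24, SE 0.13, edgeR adjusted p = 5.7e-12). Mgst2 was at 5.54 and 4.20 CPM in WT and 20.9 and 23.8 CPM in 3xGrk-/- cells unstimulated (log2 2.22, SE 0.188). By value this was the largest unstimulated difference of the 40 genes, but it rests on 29 and 30 counts in WT. That of Prdx1 (2.13) lay within its standard error. After LPS Mgst2 was at 5.26 and 4.95 CPM in WT and 7.45 and 5.67 CPM in 3xGrk-/- cells, which did not pass (log2 0.35, edgeR adjusted p = 0.274). Mgst3, at 10.1 and 8.13 CPM against 12.9 and 13.7 CPM unstimulated, was higher by 0.56 (SE 0.182, edgeR adjusted p = 0.00579), and by 0.39 without WT replicate 2 (edgeR adjusted p = 0.184). After LPS its groups overlapped (log2 0.03).

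Gstm1 (chr3:108012255-108017973), a cytosolic mu-class transferase, was at 76.8 and 80.9 CPM in WT and 78.1 and 67.2 CPM in 3xGrk-/- cells unstimulated, where the groups overlapped (log2 -0.12, edgeR adjusted p = 0.199). Without 3xGrk-/- replicate 1 that difference was -0.23 (edgeR adjusted p = 0.0487). After LPS it was at 48.4 and 49.0 CPM in WT and 215 and 206 CPM in 3xGrk-/- cells, a 4.31-fold difference (log2 2.11, SE 0.0775, edgeR adjusted p = 2.44e-15). Gsto1, an omega-class transferase, was lower in 3xGrk-/- cells in both states, from 299 and 293 CPM to 219 and 211 CPM unstimulated (log2 -0.46, SE 0.0461) and from 527 and 579.6 CPM to 328 and 303 CPM after LPS (log2 -0.81, SE 0.0643). Gstp1, the pi-class transferase, was at 18.0 and 16.4 CPM against 25.0 and 23.1 CPM unstimulated (log2 0.50, SE 0.137, edgeR adjusted p = 0.000946) and overlapped after LPS (log2 0.14). DESeq2 gave an adjusted p of 0.0921 for the unstimulated difference.

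The glutathione peroxidases reduce peroxides at the cost of glutathione. Gpx1 (chr9:108338903-108340343), the abundant cytosolic form, was at 466 and 446 CPM in WT and 671 and 657 CPM in 3xGrk-/- cells unstimulated (log2 0.54, SE 0.0384). After LPS the order was turned, with 883 and 979.7 CPM in WT and 615 and 585 CPM in 3xGrk-/- cells (log2 -0.64, SE 0.0602, edgeR adjusted p = 1.55e-08). Gpx4, which reduces lipid peroxides in membranes, was higher by 0.45 (SE 0.0508) and 0.40 (SE 0.0682), from 146 and 158 CPM to 216 and 200.2 CPM unstimulated. Esd, which hydrolyses S-formylglutathione, was at 135 and 139 CPM in WT and 378 and 355 CPM in 3xGrk-/- cells unstimulated (log2 1.41, SE 0.048), and at 159 and 168 CPM against 602 and 591 CPM after LPS (log2 1.86, SE 0.0623). Abcc1, the pump that exports glutathione conjugates, was higher by 0.54 (SE 0.0452) unstimulated, from 226 and 224 CPM to 329 and 326 CPM. With LPS it was higher by 0.23 (SE 0.0588, edgeR adjusted p = 0.00279), with an adjusted p of 0.0939 without 3xGrk-/- replicate 2.

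Superoxide dismutases turn superoxide into hydrogen peroxide, which catalase removes, and these 3 genes did not move together. Sod2, the mitochondrial dismutase, was at 77.4 and 76.2 CPM in WT and 210.3 and 223 CPM in 3xGrk-/- cells unstimulated (log2 1.50, SE 0.058). After LPS it was at 131 and 144 CPM in WT and 655 and 632 CPM in 3xGrk-/- cells (log2 2.23, SE 0.0655, edgeR adjusted p = 5.76e-17). Sod1, the cytosolic dismutase, was lower unstimulated, from 126 and 119.5 CPM to 95.6 and 100.2 CPM (log2 -0.33, SE 0.0618), and overlapped after LPS (log2 -0.04). Cat, catalase, was lower in both states, from 262 and 281 CPM to 226 and 221 CPM (log2 -0.28, SE 0.0463) and from 238 and 263 CPM to 155 and 152 CPM (log2 -0.71, SE 0.0677).

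The 7 genes that supply NADPH were split, with 3 higher and 2 lower unstimulated and 2 higher and 4 lower after LPS. Pgd, the second NADPH-yielding dehydrogenase of the pentose phosphate pathway, was higher in both states, from 360.1 and 377 CPM to 565 and 546 CPM (log2 0.59, SE 0.04) and from 174 CPM in both WT libraries to 328 and 332 CPM (log2 0.92, SE 0.0613, edgeR adjusted p = 5.65e-11). G6pdx, which opens the pathway, was at 191 and 184 CPM against 183 CPM in both 3xGrk-/- libraries unstimulated (log2 -0.03, edgeR adjusted p = 0.66), and at 120.1 and 140.3 CPM against 206 and 195 CPM after LPS (log2 0.62, SE 0.0759). Pgls, the lactonase between these dehydrogenases, was uneven in WT cells, with 93.0 and 63.6 CPM unstimulated and 60.8 and 82.0 CPM after LPS. The 3xGrk-/- libraries were at 95.9 and 92.6 CPM and at 55.3 and 53.0 CPM, which gave log2 fold changes of 0.30 (SE 0.0703, edgeR adjusted p = 7.83e-05) and -0.41 (SE 0.114, edgeR adjusted p = 0.0056). Unstimulated, the WT library at 93.0 CPM lay within the 3xGrk-/- range. Without unstimulated WT replicate 2 the difference was 0.02 (edgeR adjusted p = 0.901), and without WT LPS replicate 2 it was -0.16 (edgeR adjusted p = 0.217).

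Transaldolase and transketolase run the non-oxidative branch of the pathway. Taldo1 was higher unstimulated, from 325 and 348 CPM to 407 and 393 CPM (log2 0.25, SE 0.0419), and its groups overlapped after LPS (log2 -0.01). Tkt was at 481 to 497 CPM in all 4 unstimulated libraries (log2 0.03) and at 273 and 287 CPM in WT against 237 and 240.4 CPM in 3xGrk-/- cells after LPS (log2 -0.23, SE 0.0609, edgeR adjusted p = 0.00332). That call was lost without 3xGrk-/- replicate 1 (edgeR adjusted p = 0.128) or replicate 2 (edgeR adjusted p = 0.116). Me1, cytosolic malic enzyme, was scarce and lower in 3xGrk-/- cells, at 5.73 and 5.47 CPM against 3.44 and 2.78 CPM unstimulated (log2 -0.83, SE 0.285) and 6.35 and 7.12 CPM against 2.36 and 2.43 CPM after LPS (log2 -1.49, SE 0.296, edgeR adjusted p = 0.000261). Its unstimulated call was lost without WT replicate 1, WT replicate 2 or 3xGrk-/- replicate 2 (edgeR adjusted p = 0.0509, 0.054 and 0.104), with log2 fold changes of -0.80, -0.87 and -0.69. Idh1, cytosolic isocitrate dehydrogenase, was lower by small amounts, from 205 and 193 CPM to 179 and 182 CPM (log2 -0.14, SE 0.0496, edgeR adjusted p = 0.015) and from 98.9 and 84.8 CPM to 78.0 and 75.2 CPM (log2 -0.26, SE 0.0902, edgeR adjusted p = 0.0219). Its unstimulated call was lost without WT replicate 1 (-0.10) or 3xGrk-/- replicate 1 (-0.12). It was also lost with no filter on low counts (-0.12, edgeR adjusted p = 0.0854) or in a fit of all 8 libraries (-0.14, edgeR adjusted p = 0.0907). The call after LPS was lost without WT replicate 1 (-0.14, edgeR adjusted p = 0.198) or either 3xGrk-/- replicate (-0.28 and -0.22, edgeR adjusted p = 0.0937 and 0.207).

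The log2 fold changes of the 3 regulators lay between -0.18 and 0.18 unstimulated and between -0.28 and 0.54 after LPS. Nfe2l2 was at 154 and 169.7 CPM in WT and 181 and 189 CPM in 3xGrk-/- cells unstimulated, and at 97.4 and 89.4 CPM against 122 and 112 CPM after LPS. The differences were 0.18 (SE 0.0514, edgeR adjusted p = 0.00114) and 0.33 (SE 0.0802, edgeR adjusted p = 0.00194). They were 0.12 without unstimulated WT replicate 1 (edgeR adjusted p = 0.103) and 0.28 without 3xGrk-/- LPS replicate 1 (edgeR adjusted p = 0.0751). Keap1 was at 54.4 and 56.2 CPM against 58.3 and 59.4 CPM unstimulated, which did not pass (log2 0.09), and at 117 and 136 CPM against 109 and 101 CPM after LPS (log2 -0.28, SE 0.0819, edgeR adjusted p = 0.00772). The latter was -0.16 without WT replicate 2 (edgeR adjusted p = 0.0998) and -0.20 without 3xGrk-/- replicate 2 (edgeR adjusted p = 0.214). Sqstm1 encodes p62, an autophagy receptor that binds KEAP1. It was lower unstimulated, at 573 and 551 CPM in WT and 505 and 483 CPM in 3xGrk-/- cells (log2 -0.18, SE 0.0387), and higher after LPS, at 665 and 712 CPM against 1021 and 980.1 CPM (log2 0.54, SE 0.0568, edgeR adjusted p = 7.86e-08). RNA counts carry no measure of the amount or location of the NRF2 protein.

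The difference between the genotypes itself depended on LPS for 24 of the 40 genes. In a single fit of all 8 libraries the signed log2 ratio of 3xGrk-/- to WT was higher after LPS in 14 genes, lower in 10, and not distinguishable in 16, where 16.5% of 12541 genes were higher and 16% lower. A lower ratio can be a larger difference, as for Cat and Gsto1, which were below WT in both states. The median of this change was -0.00 log2 units over the 40 genes and 0.01 over all genes. The ratio grew most for Gstm1 (by 2.23 log2 units, SE 0.111, edgeR adjusted p = 2.99e-15), Hmox1 (by 2.12, SE 0.0999) and Prdx6 (by 1.48, SE 0.0959), followed by Mgst1 (1.14) and Osgin1 (0.97). It shrank most for Mgst2 (-1.86, SE 0.324, edgeR adjusted p = 4.07e-05) and Gpx1 (-1.18, SE 0.0738). Prdx1 had a ratio that changed by -0.02 (SE 0.0654, edgeR adjusted p = 0.843), and Txn1 and Txnrd1 gave -0.02 and 0.02. Of the ligase subunits, Gclc grew by 0.62 (SE 0.159) while Gclm shrank by -0.48 (SE 0.118). Of the genes that passed in a single state, Mgst2, Sod1, Taldo1, G6pdx, Gstm1, Keap1, Osgin1 and Tkt also passed this test, and Gstp1 and Mgst3 did not (edgeR adjusted p = 0.215 and 0.163). The calls for Sod1, Keap1, Taldo1 and Pgls were lost without single libraries, and DESeq2 did not call Keap1, Sod1 and Pgls (adjusted p = 0.105 to 0.194). Nqo1 lay at the threshold (-0.63, SE 0.245, edgeR adjusted p = 0.0502). It passed with RLE scaling, with library size alone or without Gm42418 (-0.63 in each, edgeR adjusted p = 0.0462 to 0.0492). It also passed without WT unstimulated replicate 2, 3xGrk-/- unstimulated replicate 2, WT LPS replicate 1 or 3xGrk-/- LPS replicate 2 (-0.69 to -0.85).

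**Figure D3:**
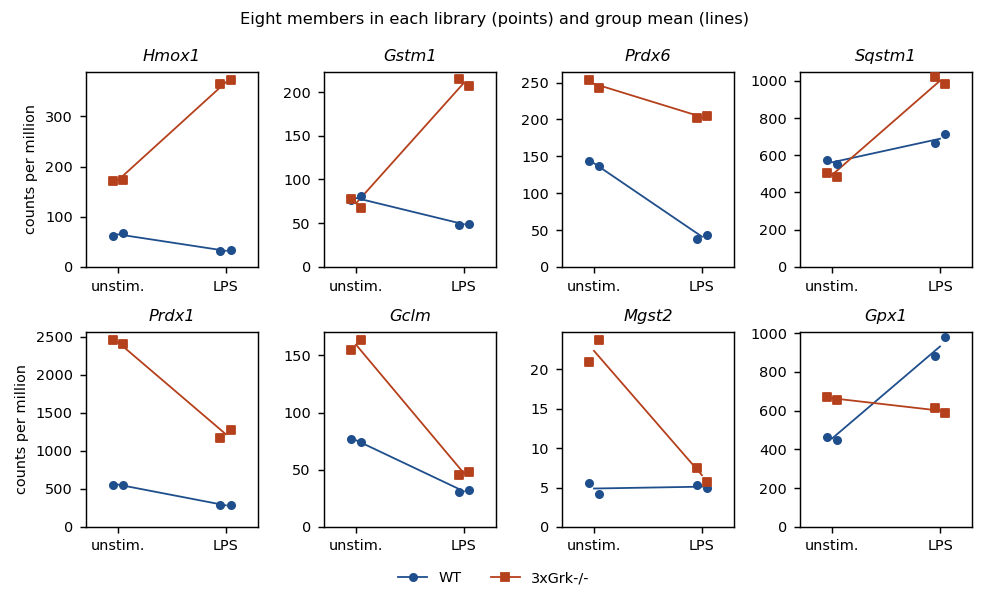
Levels of 8 genes in CPM, with 1 point per library and a line through the means of each genotype from unstimulated to LPS; each panel has its own axis from 0. Hmox1, Gstm1 and Sqstm1 climb in 3xGrk-/- cells after LPS, Prdx1 falls in both genotypes, and the lines of Gpx1 cross.

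Within WT cells LPS lowered more of these genes than it raised: 19 of 40 fell, 11 rose and 10 did not pass, where 30.8% of 12541 genes fell and 29.5% rose. Within 3xGrk-/- cells 19 fell, 13 rose and 8 did not pass, where 27.4% of all genes fell and 28% rose. The medians of the 40 were -0.18 and -0.16 log2 units, beside -0.01 in both for all genes. Unstimulated and LPS libraries stand in separate count tables, so that any difference in their handling cannot be told apart from LPS. Scaling by library size alone moved the median of all genes to -0.23 in both genotypes. The 40 then split into 7 higher and 24 lower in WT and 11 higher and 20 lower in 3xGrk-/- cells, and all genes into 2443 higher and 5420 lower in WT (3702 and 3859 with the main scaling) and 2245 higher and 5200 lower in 3xGrk-/- cells (3510 and 3435).

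In both genotypes 14 genes fell after LPS. They included the ligase subunits Gclm (-1.28 in WT, SE 0.0875, and -1.76 in 3xGrk-/- cells, SE 0.0742) and Gclc (-1.05 and -0.44), Gss (-0.46 and -0.78) and Gsr (-0.51 and -0.39). The call for Gss in WT was lost without unstimulated replicate 2 (-0.31, edgeR adjusted p = 0.276), LPS replicate 1 (-0.44, edgeR adjusted p = 0.0744) or LPS replicate 2 (-0.47, edgeR adjusted p = 0.0771). So did Nqo1 (-1.25 and -1.88), Prdx1 (-0.98 and -0.996), Blvrb (-1.29 and -0.41), Prdx6 (-1.77 and -0.29) and Txnrd1 (-0.19 and -0.17). Without 3xGrk-/- LPS replicate 1 the adjusted p of Txnrd1 in 3xGrk-/- cells was 0.0527. The NADPH genes Pgd (-1.08 and -0.75), Tkt (-0.78 and -1.04), Taldo1 (-0.19 and -0.45) and Idh1 (-1.12 and -1.24) fell as well, and so did Nfe2l2 (-0.80 and -0.66). Taldo1 in WT was at -0.13 without unstimulated replicate 2 (edgeR adjusted p = 0.109). No gene of glutathione synthesis or of the NADPH group passed as higher in this fit of all 8 libraries. In a fit of 3xGrk-/- libraries alone G6pdx did (0.12, edgeR adjusted p = 0.0254, against 0.13 and 0.0885 in the fit of all 8).

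The 10 genes that rose in both genotypes were Keap1 (1.20 and 0.83), Sqstm1 (0.29 and 1.02), Sod2 (0.84 and 1.57), Gsto1 (0.90 and 0.55), Abcc1 (0.64 and 0.32), Esd (0.25 and 0.70), Txn1 (0.57 and 0.54), Prdx2 (0.44 and 0.36), Prdx5 (0.30 and 0.81) and Gpx4 (0.20 and 0.15). Keap1 thus rose while Nfe2l2 fell, with the same signs in both genotypes. With library size scaling Sqstm1 (0.08, edgeR adjusted p = 0.183), Prdx5 (0.08, edgeR adjusted p = 0.216) and Esd (0.04, edgeR adjusted p = 0.618) did not pass in WT, nor did Abcc1 in 3xGrk-/- cells (0.11, edgeR adjusted p = 0.0775). With that scaling Gpx4 was at -0.01 and -0.07, and with the main scaling it did not pass in 3xGrk-/- cells without unstimulated replicate 2 (0.10, edgeR adjusted p = 0.33) or LPS replicate 1 (0.11, edgeR adjusted p = 0.27), nor in WT without unstimulated replicate 1 (0.15, edgeR adjusted p = 0.12) or LPS replicate 2 (0.13, edgeR adjusted p = 0.0867).

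Hmox1, Gstm1 and Gpx1 moved in opposite directions in the genotypes. Hmox1 fell by 1.02 log2 units in WT (SE 0.0835) and rose by 1.09 in 3xGrk-/- cells (SE 0.0554), and Gstm1 fell by 0.70 (SE 0.0849) and rose by 1.53 (SE 0.0717). Gpx1 rose by 1.03 in WT (SE 0.0525) and was at -0.15 in 3xGrk-/- cells (SE 0.052, edgeR adjusted p = 0.0185), a call that was lost without unstimulated replicate 1 (-0.13, edgeR adjusted p = 0.132), unstimulated replicate 2 (-0.16, edgeR adjusted p = 0.0561) or LPS replicate 2 (-0.11, edgeR adjusted p = 0.19). In WT cells only, by the test within each genotype, G6pdx (-0.52), Osgin1 (-0.87) and Sod1 (-0.23) fell. Sod1 was at -0.20 without unstimulated replicate 1 (edgeR adjusted p = 0.0707) and -0.12 without LPS replicate 1 (edgeR adjusted p = 0.156). In 3xGrk-/- cells only, by the same test, Mgst1 rose (0.85) while Cat (-0.54), Mgst2 (-1.77), Mgst3 (-0.72) and Pgls (-0.80) fell. Mgst3 was at -0.48 without LPS replicate 2 (edgeR adjusted p = 0.0845). That the WT response was not called depended on the scaling for 3 of these genes. When scaled by library size, Cat and Pgls fell in WT as well (-0.33 and -0.32, edgeR adjusted p = 1.21e-05 and 0.0234), and Mgst1 fell in WT (-0.51, edgeR adjusted p = 0.00879) while it rose in 3xGrk-/- cells (0.63). Of these 8 genes, 7 also passed the test of the difference between genotypes, and Mgst3 did not. DESeq2 did not call the responses of Gss and Sod1 in WT (adjusted p = 0.142 and 0.0578) or of Gpx1 and Gpx4 in 3xGrk-/- cells (adjusted p = 0.061 and 0.135).

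The remaining 5 genes, Cbr1, Slc7a11, Gstp1, Srxn1 and Me1, passed in neither genotype. Scaled by library size, Srxn1 (-0.28, edgeR adjusted p = 0.00138) and Slc7a11 (-0.28, edgeR adjusted p = 0.00423) fell in WT and Gstp1 fell in 3xGrk-/- cells (-0.55, edgeR adjusted p = 0.0017). In the fit of 3xGrk-/- libraries alone Srxn1 was at 0.12 (edgeR adjusted p = 0.0267) and Gstp1 at -0.34 (edgeR adjusted p = 0.0227). The WT value of Slc7a11 rested on single libraries: its LPS response was -0.06, and it was 0.14 without LPS replicate 2 (edgeR adjusted p = 0.0397) and -0.28 without LPS replicate 1 (edgeR adjusted p = 5.47e-05). Cat in WT (-0.12) passed without unstimulated replicate 1 (-0.17, edgeR adjusted p = 0.0465) or LPS replicate 2 (-0.19, edgeR adjusted p = 0.00491). Pgls in WT (-0.10) passed without unstimulated replicate 2 (-0.37, edgeR adjusted p = 0.0116) or LPS replicate 2 (-0.33, edgeR adjusted p = 0.0122). Gstp1 in 3xGrk-/- cells (-0.33) passed without LPS replicate 1 (-0.43, edgeR adjusted p = 0.0459).

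**Figure D4:**
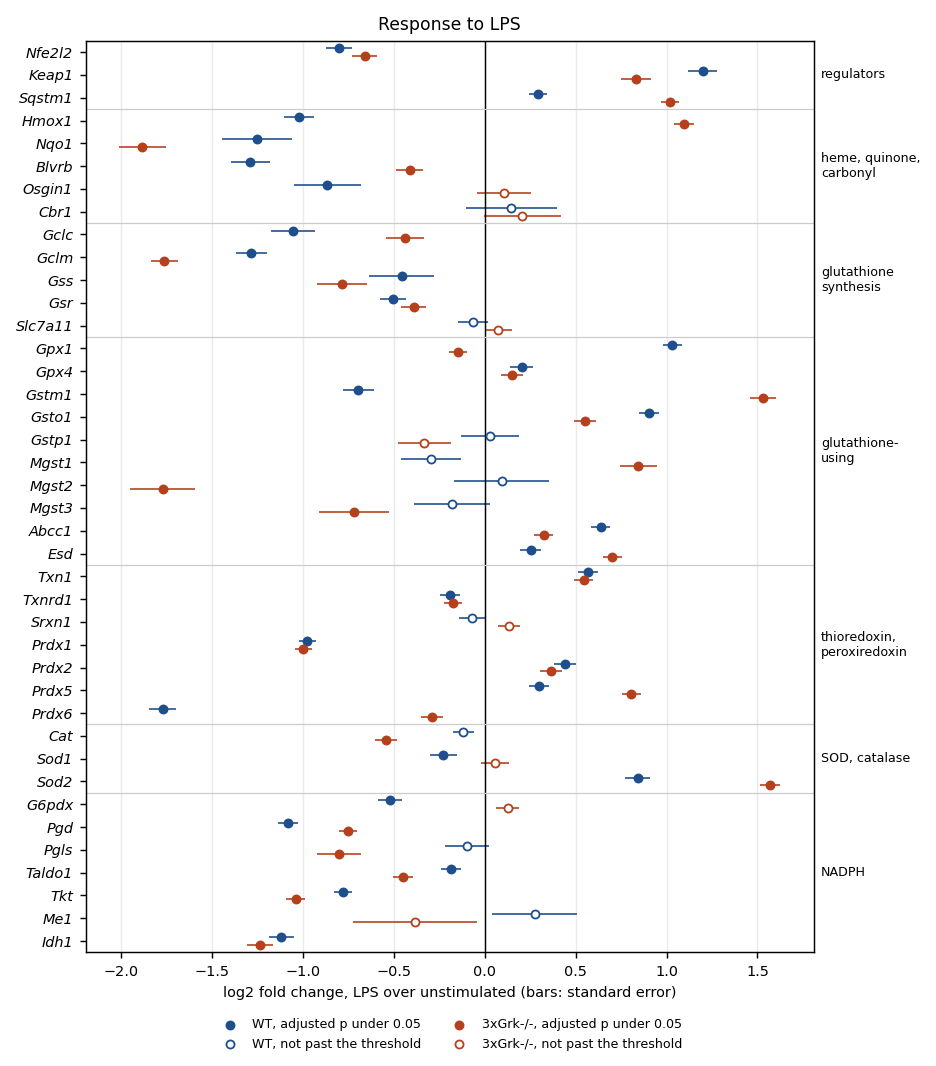
Log2 fold change of LPS over unstimulated for each gene, in WT (blue) and 3xGrk-/- cells (red), with bars of 1 standard error; filled circles passed an adjusted p of 0.05. Hmox1 and Gstm1 lie on opposite sides of 0 in the genotypes, and the genes of glutathione synthesis and NADPH supply lie mostly to the left.

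Other genes of the same pathways were counted from 6 further lists, with the shares of all genes (22.1% higher and 22.7% lower unstimulated, 24.7% and 24% after LPS) as background. Of 10 other regulators of NRF2, 4 were higher and 1 lower in unstimulated 3xGrk-/- cells, and 3 were higher and none lower after LPS, which is near or below the share of all genes called. The higher regulators included the small MAF partner gene Mafg (log2 0.60 and 0.89), and Bach1, a repressor of Hmox1, was lower unstimulated (-0.24). Of 22 other NRF2 targets 18 were tested. Of these, 10 were higher and 3 lower unstimulated and 12 higher and 2 lower after LPS, with medians of 0.54 and 0.68. Akr1b8 passed the filter on low counts through the 3xGrk-/- libraries in both states, so it could only be called higher. It was at 0.57 and 0.84 CPM in WT against 10.2 and 10.4 CPM unstimulated. After LPS it was at 0.36 and 0.77 CPM against 9.998 and 7.94 CPM. Cbr3 passed in this way after LPS (1.09 and 1.24 CPM against 3.64 and 1.95 CPM). Marco, called lower after LPS, passed through the WT libraries (6.89 and 8.51 CPM against 0.73 and 1.13 CPM). Ptgr1, a reductase of reactive carbonyls, was higher by 2.54 and 2.60, and the ferritin genes Fth1 and Ftl1 by 2.91 and 1.79 after LPS. The conjugate pump gene Abcc3 was higher by 2.85 unstimulated, from 2.87 and 3.50 CPM in WT to 23.9 and 22.9 CPM. The iron exporter gene Slc40a1 was lower unstimulated (log2 -2.36), from 14.1 and 11.2 CPM to 2.69 and 2.08 CPM. Both of these folds rest on a group with few reads.

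The 33 other glutathione genes showed no common direction unstimulated, where 5 of 19 tested were higher and 4 lower. After LPS 10 of 16 tested were higher and 3 lower, and the higher ones included the transporter gene Abcc5 (log2 2.34) and the peroxidase gene Gpx3. Gpx3 was at 0.36 and 0.77 CPM in WT, a few reads per library, against 20.9 and 26.3 CPM in 3xGrk-/- cells. It passed the filter on low counts through the 3xGrk-/- libraries, so its fold is not given, although it is among the 16 tested. Gstm2, also among them, passed the filter in the same way (1.27 and 1.70 CPM in WT against 16.2 and 12.8 CPM). Of 19 other thioredoxin and peroxidase genes 3 were higher and 5 lower unstimulated, and 4 higher and 6 lower after LPS, also near that share. Glrx, glutaredoxin, was higher by 1.22 and 3.69, and Txnip, an inhibitor of thioredoxin, by 0.91 and 1.78. Of 17 other NADPH genes 15 were tested, and 1 was higher and 6 lower unstimulated, among them Nadk2 (-0.78) and Prps1 (-0.70). After LPS 3 were higher and 2 lower, with H6pd at 0.98 and Mthfd2 at -0.71. Of 8 NADPH oxidase genes 5 were higher and none lower unstimulated, and 3 were higher and 3 lower after LPS. Cybb, the catalytic subunit that passes electrons from NADPH to oxygen, was higher by 2.004 and 2.126, and Ncf4 and Cyba by 0.69 and 0.57 unstimulated.

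Reads of some genes could be assigned to more than 1 gene. Exons of Prdx2 overlap those of Junb on the other strand, which held 14916 counts against 8272 for Prdx2, and those of Gss overlap Acss2 (891 counts against 812), so that the values of both depend on whether strand was used in counting, which is not given in the sources used here. Like overlaps touch G6pdx with Ikbkg (4524 counts against 8495) and Prdx5 with Trmt112 (1412 against 18410). Pgls shares strand and exon sequence with Fam129c. Among near-identical copies, 33.7% of the 50-base words of Gstp1 also occur in Gstp2 and 14.1% of those of Gstm1 in Gstm2-ps1, and 34.7% of those of Gpx4 occur in a pseudogene that held 0 counts. Of the words of Me1 21.1% occur in another gene that held 0 counts, and of those of Sod2 1599 of 10012 occur in Rps6ka2, which held 1666 counts, and 17.6% in a gene that held 0. The values of Gstp1, Gstm1, Gpx4, Pgls, Me1, Sod2, Prdx2, Gss, G6pdx and Prdx5 carry this uncertainty.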

How the data were processed

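RNA from 8 BMDC libraries was analysed, 2 for each of 4 groups, grouped by the sample labels. The authors deposited whole-number counts of reads per gene without normalization, in 2 tables (unstimulated and LPS). According to the study's methods, stranded mRNA libraries were aligned to mm10 with STAR and counted with featureCounts in snakePipes. The annotation release and the strand setting are not given in the sources used here. Of 47937 gene IDs, 47310 matched GENCODE M21 on GRCm38, and 0.0468% of counts lay on the rest.

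Counts were normalised by TMM and tested in edgeR 4.0.16 (R 4.3.3) with the quasi-likelihood test after filterByExpr, at an adjusted p under 0.05 (Benjamini-Hochberg). Genotypes were compared within each table. LPS responses and their difference between genotypes came from 1 fit of all 8 libraries. Levels are CPM with TMM factors over all 8 libraries. The standard error is the log2 fold change divided by the root of the F statistic. The steps were tested on simulated data.

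All 40 listed genes were named, and at most 3 genes per further list and comparison (the largest log2 fold changes past the threshold with a mean log2 CPM of at least 3). The members, lists and tests were chosen with earlier results of these data known. Alternatives were DESeq2 1.42.0, RLE scaling, library size alone, no filter, at least 10 counts in every library, log2 fold changes of at least 1, a biological coefficient of variation of 0.4, leaving out Gm42418 or each library, a replicate block, and a fit of other samples. Libraries held 4713305 to 6933358 counts, so that scarce genes such as Me1 (13 to 46 counts per library) carry larger errors.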

Additional observations from a re-analysis of the deposited data

Results flagged for a closer look

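For 24 of the 40 genes the signed log2 ratio of 3xGrk-/- to WT cells changed with LPS, by the interaction term of edgeR's quasi-likelihood test over all 8 libraries. The ratio was higher after LPS for Gstm1 (by 2.23), Hmox1 (2.12), Prdx6 (1.48), Mgst1 (1.14), Osgin1 (0.97), Blvrb (0.87), Sod2 (0.73), Sqstm1 (0.72), G6pdx (0.65), Gclc (0.62), Prdx5 (0.51), Esd (0.45), Pgd (0.33) and Sod1 (0.29). It was lower for Mgst2 (-1.86), Gpx1 (-1.18), Pgls (-0.70), Gclm (-0.48), Cat (-0.43), Keap1 (-0.37), Gsto1 (-0.35), Abcc1 (-0.31), Taldo1 (-0.26) and Tkt (-0.26). A change of the signed ratio is not always one of its size in the same direction: Sod1 went from -0.33 unstimulated to -0.04 after LPS, while Cat (-0.28 to -0.71), Gsto1 (-0.46 to -0.81), Keap1 (0.09 to -0.28) and Tkt (0.03 to -0.23) moved further below or to below 0.

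The calls for Sod1, Keap1, Taldo1 and Pgls were lost when single libraries were left out. Sod1 did not pass without any single library other than unstimulated WT replicate 2 and WT LPS replicate 2 (0.18 to 0.32, edgeR adjusted p = 0.057 to 0.153). Keap1 did not pass without unstimulated WT replicate 1 (-0.32), unstimulated 3xGrk-/- replicate 2 (-0.35), WT LPS replicate 2 (-0.25) or 3xGrk-/- LPS replicate 2 (-0.31). Taldo1 did not pass without unstimulated WT replicate 1 (-0.19), unstimulated 3xGrk-/- replicate 1 (-0.23) or 3xGrk-/- LPS replicate 2 (-0.24). Pgls did not pass without unstimulated WT replicate 2 (-0.41, edgeR adjusted p = 0.0531). Gstp1, Slc7a11, Idh1 and Srxn1 passed without WT LPS replicate 1 (Gstp1, -0.58, and Slc7a11, 0.36) or WT LPS replicate 2 (Idh1, -0.23, and Srxn1, 0.25).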

How the results depend on the processing

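Counts of genes higher and lower are given in that order for the 40 genes and, after "all", for all genes tested. With log2 fold changes of at least 1 they were 12 and 0 unstimulated (all 578 and 866), 13 and 1 after LPS (all 1223 and 761), 4 and 2 for the change of the genotype difference with LPS (all 947 and 428), 2 and 8 for LPS in WT (all 1091 and 1609) and 4 and 5 for LPS in 3xGrk-/- cells (all 1216 and 1157). With a biological coefficient of variation of 0.4, as for unrelated donors, they were 2 and 0 (all 195 and 253), 9 and 0 (all 569 and 213), 0 and 0 (all 61 and 11), 0 and 1 (all 451 and 659) and 0 and 2 (all 552 and 298). DESeq2 gave 22 and 4 unstimulated (all 1569 and 1517), 25 and 6 after LPS (all 2089 and 1845), 13 and 8 for the change with LPS (all 1342 and 1301), 11 and 17 for LPS in WT (all 2972 and 2882) and 12 and 18 for LPS in 3xGrk-/- cells (all 2681 and 2478). Library size scaling left 7 of the 40 higher after LPS in WT and gave Gpx4 LPS responses of -0.0112 in WT and -0.0688 in 3xGrk-/- cells. Leaving out 1 library gave 25 to 27 and 4 to 6 unstimulated, 24 to 26 and 5 to 7 after LPS, 13 to 15 and 8 to 12 for the change with LPS, 10 to 11 and 18 to 20 for LPS in WT, and 12 to 13 and 17 to 19 for LPS in 3xGrk-/- cells. The WT response of Slc7a11 was 0.14 without WT LPS replicate 2 and -0.28 without WT LPS replicate 1.

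Replicate numbers were not shown to pair the libraries: deviations of same-numbered libraries correlated between -0.0184 and 0.0327. With the replicate block the 40 genes gave 27 higher and 6 lower unstimulated. It added Cbr1 after LPS (log2 0.57, adjusted p = 0.0459) and dropped Sod1 for the change with LPS (0.28, adjusted p = 0.0507) and Gpx4 for LPS in 3xGrk-/- cells (0.15, adjusted p = 0.0594), all by edgeR.

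Apart from the fold threshold and the fixed variation, 26 of 33 calls unstimulated, 27 of 33 after LPS, 20 of 24 for the change with LPS, 23 of 30 for LPS in WT and 27 of 32 for LPS in 3xGrk-/- cells passed under every alternative. With 2 libraries a group, the log2 fold changes of the scarce genes Cbr1, Me1 and Mgst3 had standard errors of 0.182 to 0.412.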

Other observations

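The further lists were also counted for the response to LPS, where 29.5% of all genes rose and 30.8% fell in WT cells and 28% rose and 27.4% fell in 3xGrk-/- cells. The counts were not tested against these shares. Of 10 other regulators of NRF2, 2 rose and 2 fell in WT cells and 3 rose and 1 fell in 3xGrk-/- cells, and of 20 other glutathione genes tested, 3 rose and 7 fell in WT cells and 8 rose and 4 fell in 3xGrk-/- cells. Of 15 other NADPH genes tested, 2 rose and 9 fell in WT cells and 1 rose and 8 fell in 3xGrk-/- cells. The mitochondrial isocitrate dehydrogenase gene Idh2 fell by 2.29 and 1.82 log2 units and Mthfd1, of folate metabolism, by 1.91 and 1.32. Of 19 other thioredoxin and peroxidase genes, 2 rose and 11 fell in WT cells and 2 rose and 9 fell in 3xGrk-/- cells. Prdx3, the mitochondrial peroxiredoxin gene, fell by 0.94 in WT, and Glrx rose by 2.64 in 3xGrk-/- cells.

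Of 8 NADPH oxidase genes, 3 rose and 4 fell in WT cells and 4 rose and 3 fell in 3xGrk-/- cells. Ncf1, an organiser subunit of the oxidase, rose by 1.65 and 0.71, and Rac2, a small GTPase that the oxidase needs, by 1.33 and 1.11. Of 19 other NRF2 targets tested, 3 rose and 9 fell in WT cells and 5 rose and 7 fell in 3xGrk-/- cells, where Ephx1, epoxide hydrolase, fell by 2.28 and 2.26 and Abcc3 rose by 3.10 and 1.61. All calls are by edgeR's quasi-likelihood test in the fit of all 8 libraries.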
